A study of Mus musculus with 6 samples.

Results

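Metallothioneins and the zinc-handling genes around them were examined in mouse hearts with and without tail-suspension. The 7 genes were Mt1, Mt2, Mt3, Mtf1, Slc30a1, Slc39a14 and Slc39a8, and every probe that the array design names for one of them was taken. They had 9 of the 55681 probes and 7 of the 28909 gene names on the array. RNA from cardiac muscle of male C57BL/6 mice was hybridised to 1-colour Agilent arrays, 1 mouse per array, with 3 sham and 3 tail-suspended mice. Mice were suspended by the tail for 28 days, a model of simulated weightlessness, and sham mice lived in the same space without suspension. The labels put the mice at 10 weeks when suspension began but also give an age of 11 weeks for all of them, which 28 days of suspension does not allow, so the age at sampling is uncertain. No allele or drug is given for either group.

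Metallothioneins are small cysteine-rich proteins that bind zinc, copper and cadmium ions and can scavenge oxidants. In most tissues Mt1 and Mt2 are the inducible forms, and metals, glucocorticoids and inflammatory cytokines raise their transcription, whereas Mt3 is best known from brain and Mt4 from stratified epithelia. Free zinc is sensed by the transcription factor Mtf1, which binds metal response elements, while ZnT proteins (Slc30a) move zinc out of the cytosol and ZIP proteins (Slc39a) move it in.

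The upstream sequences of Mt1, Mt2 and Mt3 are shown because these neighbouring genes gave different results in the same hearts. Each is the RefSeq window (GRCm38.p6, plus strand) from 250 bases before to 50 bases after a start site, with matches to the metal response element core, TGCACNC or TGCGCNC on either strand, in capitals. A match on the minus strand appears as its reverse complement on the printed strand.
Mt1, chr8:94178839-94179138: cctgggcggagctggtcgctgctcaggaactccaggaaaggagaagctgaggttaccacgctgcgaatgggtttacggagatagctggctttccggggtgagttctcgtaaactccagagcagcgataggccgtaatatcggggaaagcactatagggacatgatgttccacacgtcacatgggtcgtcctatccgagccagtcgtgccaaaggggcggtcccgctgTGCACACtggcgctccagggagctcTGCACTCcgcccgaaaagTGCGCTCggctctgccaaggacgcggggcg
Mt2, chr8:94172368-94172667: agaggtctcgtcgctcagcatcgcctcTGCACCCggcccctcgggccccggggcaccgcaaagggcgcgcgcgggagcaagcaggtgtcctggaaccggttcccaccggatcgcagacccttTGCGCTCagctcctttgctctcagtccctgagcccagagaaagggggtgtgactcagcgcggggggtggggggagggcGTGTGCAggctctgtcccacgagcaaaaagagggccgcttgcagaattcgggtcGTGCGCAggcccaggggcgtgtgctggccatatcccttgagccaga
Mt3, chr8:94152357-94152656: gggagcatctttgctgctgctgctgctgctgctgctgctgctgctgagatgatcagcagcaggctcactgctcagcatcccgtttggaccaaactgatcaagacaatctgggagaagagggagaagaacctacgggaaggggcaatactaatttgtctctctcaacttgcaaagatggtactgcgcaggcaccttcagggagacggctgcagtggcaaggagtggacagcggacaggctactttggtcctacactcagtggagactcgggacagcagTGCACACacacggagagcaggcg

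Counting from 1 at the start site, with negative positions before it, the Mt1 window held 3 matches, at -23, 3 and 21. The Mt2 window held 4, at -223, -128, -50 and 5, and the Mt3 window held 1, at 28. Among 32851 RefSeq windows of the same length, 25.7% held at least 1 match, 1.97% at least 3 and 0.517% at least 4. The Slc30a1 window held 2 matches, at -43 and 31, which 7.11% of windows equalled or exceeded. The Mtf1 window held none, and of the 2 Slc39a8 windows 1 held a single match. Slc39a14 had no window in the table. The antioxidant response element core, TGAC followed by 3 bases of any kind and GC, was found in 12.4% of windows, and once each in Mt2, Slc30a1 and 1 of the Slc39a8 windows. The glucocorticoid response element, AGAACA followed by 3 bases of any kind and TGTTCT, was in 0.00913% of windows and in none of these. So rare an exact match makes its absence uninformative, and bases outside the windows were not searched. No 2 matches overlapped. Letters alone say nothing of whether a factor bound.

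The 60-base probes of the metallothioneins are distinct, which matters because the family is conserved. The first 30 bases of each, with the mm9 position of the whole probe on the plus strand, are given next.
Mt1, chr8:96704165-96704224: cctgtttactaaacccccgttttctaccga
Mt2, chr8:96697371-96697430: agaagcctagccttttttgtacaaccctga
Mt3, chr8:96677927-96677986: acacagcctatgtaaatagtgctgggtgtc

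The longest run that the Mt1 and Mt2 probes share is 7 bases, and their best ungapped alignment matches 24 of 60 bases. For Mt2 and Mt3 the values are 7 and 23, and for Mt1 and Mt3 they are 5 and 18.

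All 6 arrays came from 1 slide and 1 scan, with the 3 sham arrays and tail-suspension replicate 1 in its first row and tail-suspension replicates 2 and 3 in its second. Between 50.9% and 53.4% of probes were well above background on an array and no spot was saturated. Correlations between arrays over all probes were 0.991 to 0.996 within a group and 0.978 to 0.984 across groups. Defining cardiomyocyte markers (Myh6, Tnnt2, Tnni3 and others) were above background on every array, 8 of 8, with a summed level of 3830 to 4131 in sham and 3665 to 4082 in tail-suspended hearts, where 1 is the 75th percentile of the array. Each gene was read from its brightest probe, and a dimmer probe of Myh6 fell by 1.48 on the log2 scale (limma adjusted p = 0.00921).

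Mt2 and Mt1 rose in tail-suspended hearts, by 18.6-fold and 3.04-fold, and the importer Slc39a8 rose from a low signal by 1.83-fold, a call lost without any 1 array. Mt3, Mtf1, Slc30a1 and Slc39a14 did not pass the test. Thus 3 of 7 genes were called higher and 0 lower by limma with Benjamini-Hochberg adjustment over 28030 probes at an adjusted p under 0.05, against 10.5% of all 17138 tested genes called higher and 10.6% called lower. At an unadjusted p under 0.05 the counts were 4 and 0, against 18.7% and 20.6% of all tested genes. The median log2 fold change of the 7 genes was 0.29, against -0.02 over all tested genes. Levels are log2 values set against the 75th percentile of their own array, and fold changes are tail-suspension over sham. In heart tissue, fewer cells of a type and less RNA per cell cannot be told apart.

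**Figure D1:**
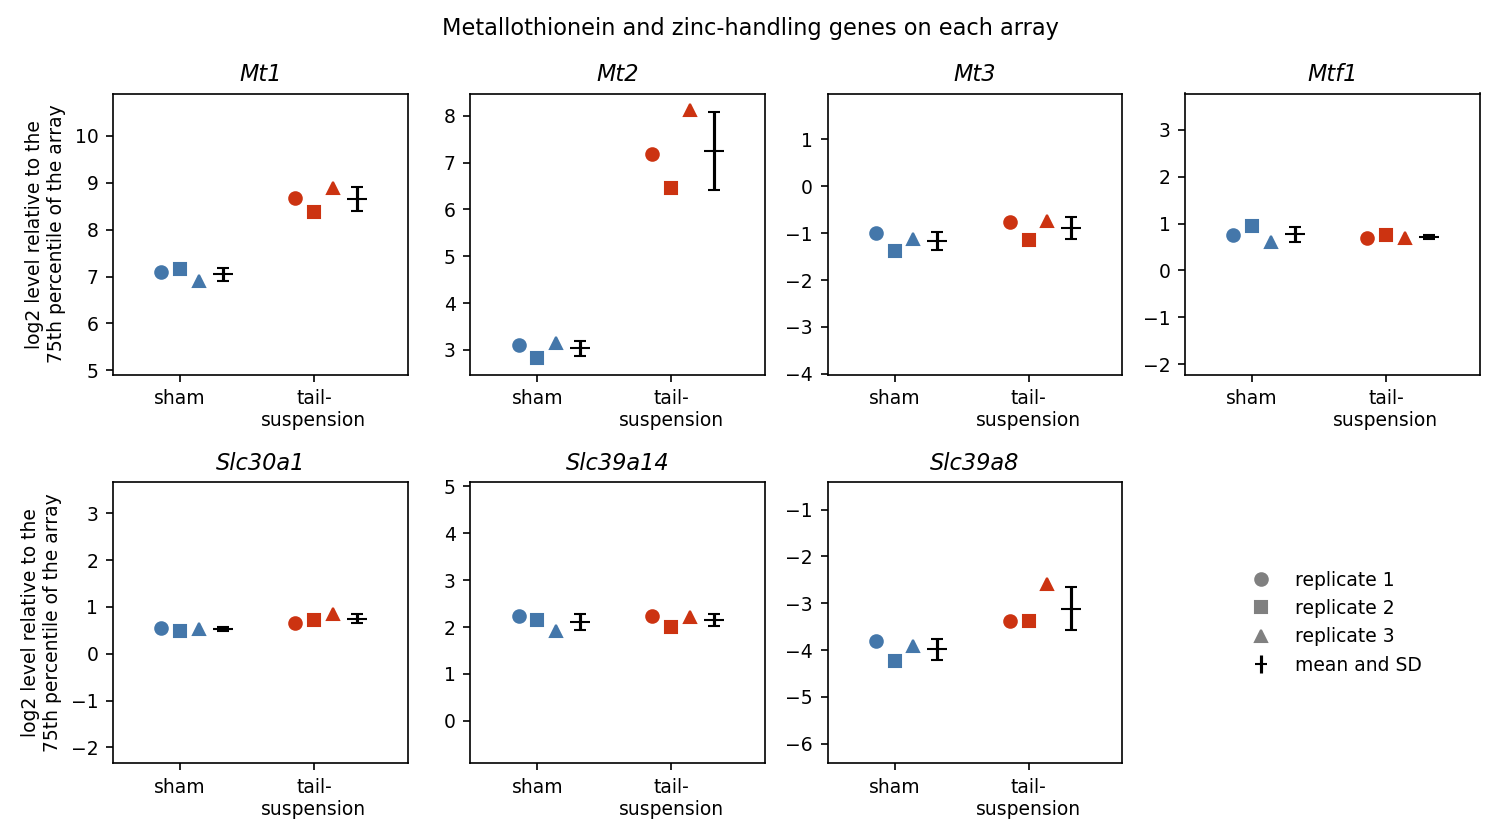
Log2 level, set against the 75th percentile of its array, for the 7 genes on the 3 sham (blue) and 3 tail-suspension (red) arrays, with the mean and SD beside the points; each panel spans about the same number of log2 units but is centred on its own gene. Mt1, Mt2, Slc30a1 and Slc39a8 are above the sham arrays on every tail-suspension array, and Mt2 is furthest from them.

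Mt2, an inducible metallothionein, had processed intensities of 2753, 2265 and 2661 on the sham arrays and of 48744, 32946 and 103164 on tail-suspension arrays 1, 2 and 3. Every tail-suspended heart lay far above every sham heart, and the tail-suspended hearts themselves differed 3.13-fold in level, replicate 3 being highest and replicate 2 lowest. On the log2 scale the level went from 3.03 ± 0.17 to 7.25 ± 0.83 (SD, n = 3 each). The log2 fold change was 4.22 with SE 0.39 (95% confidence interval 3.30 to 5.13; limma adjusted p = 0.00251), or 18.6-fold with an interval of 9.82 to 35.1. Among 16972 genes well above background in both groups this rise ranked 4 from the top. Rises of at least 10-fold that passed the test were seen in 29 genes, 0.169% of those tested. With slide row as a block the log2 difference was 4.14 (limma adjusted p = 0.0405). That value rests on the single tail-suspension array in the first row against the 3 sham arrays there, since the second row holds no sham array, and it assumes that the lone array varies like the others.

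Mt1, the other inducible form, gave 43480, 45140 and 35776 in sham and 138492, 124447 and 177909 in tail-suspended hearts. The groups did not overlap, and replicate 3 was again highest and replicate 2 lowest. The log2 level went from 7.05 ± 0.13 to 8.65 ± 0.26 (SD, n = 3 each), a log2 fold change of 1.60 with SE 0.15 (95% confidence interval 1.24 to 1.96; limma adjusted p = 0.00275). The highest intensity on an array was 356495 to 756131, and no Mt1 spot was marked as saturated. With the row as a block, which again rests on the lone tail-suspension array of the first row, the log2 difference was 1.63 (limma adjusted p = 0.0409).

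The log2 change of Mt2 was larger than that of Mt1 by 2.61 (SE 0.37 over arrays), a 6.12-fold gap between their fold changes. An exact two-sided permutation test over the 3 and 3 arrays gave p = 0.1, the smallest that this design allows, so a threshold of 0.05 could not be reached. The gap was 2.27 to 2.87 over 12 alternatives. Some of these could not alter it, namely the other choice of percentile, keeping outlier spots and the mean over probes. Array scaling cancels in the gap, and each gene had 1 probe with 1 spot and 0 outliers.

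Mt3 lies beside them and did not follow at a level the test could call. Its intensities were 159, 121 and 137 in sham and 199, 169 and 224 in tail-suspended hearts, and after scaling to the array the groups overlapped, sham replicate 1 lying above tail-suspension replicate 2. The log2 fold change was 0.29 with SE 0.15 (95% confidence interval -0.08 to 0.66; limma adjusted p = 0.215), which does not include the change of Mt1 or Mt2. Mt4, at the other end of the cluster, had a log2 fold change of 0.36 (limma adjusted p = 0.192) with overlapping groups. With 1 array left out it was 0.20 to 0.55, and without sham replicate 3 (0.55) it passed the test. RefSeq places the cluster in the order Mt4, Mt3, Gm39227, Mt2, Mt1, with no other coding gene inside it. Of the 3 measured genes nearest on either side, chosen by position after values were seen, only Herpud1, a membrane protein of endoplasmic reticulum stress, passed the test, with a log2 fold change of 1.18 (limma adjusted p = 0.00575). Bbs2, Ogfod1, Nudt21, Nup93 and Nlrc5 had log2 fold changes of 0.55, 0.11, -0.11, -0.18 and -0.47, with adjusted p of 0.051 or more.

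Mtf1, the zinc-sensing transcription factor, was read by 3 probes. The bright one (mm9 chr4:124526365-124526424) gave 540, 610 and 460 in sham and 542, 632 and 602 in tail-suspended hearts, and the groups overlapped. Its log2 fold change was -0.06 with SE 0.11 (95% confidence interval -0.32 to 0.19; limma adjusted p = 0.688). A dimmer probe, above background on 2 of 3 sham arrays, had -0.08 (limma adjusted p = 0.663), and the remaining one was not well above background on any array and was not tested.

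Slc30a1 encodes ZnT1, the zinc exporter of the plasma membrane, and had a small difference that missed the threshold. Its probe (mm9 chr1:193736760-193736819) gave 469, 442 and 436 in sham and 533, 618 and 673 in tail-suspended hearts. Every tail-suspended heart was above every sham heart, as it was for 22.0% of all tested genes. The log2 fold change was 0.22 with SE 0.09, or 1.16-fold (95% confidence interval of the log2 value 0.006 to 0.43; limma adjusted p = 0.124).

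Slc39a14 and Slc39a8 encode ZIP14 and ZIP8, importers that carry zinc, manganese and iron. Slc39a14 (mm9 chr14:70703394-70703453, minus strand) gave 1506, 1413 and 1123 in sham and 1589, 1490 and 1738 in tail-suspended hearts, and after scaling the groups overlapped. The log2 fold change was 0.05 with SE 0.12 (95% confidence interval -0.25 to 0.34; limma adjusted p = 0.804). Slc39a8 (mm9 chr3:135551169-135551228) gave 22.9, 16.8 and 19.8 in sham and 32.4, 36.0 and 62.1 in tail-suspended hearts. The groups did not overlap, but the sham values lie close to the lowest intensity called above background, which was 14.0 to 19.5 across arrays. The log2 fold change was 0.87 with SE 0.24 (95% confidence interval 0.30 to 1.44; limma adjusted p = 0.0476). That call was lost without any 1 of the 6 arrays, with log2 fold changes of 0.60 to 1.00 and adjusted p of 0.0511 to 0.148. With normexp background correction the value was 0.11 (limma adjusted p = 0.545), and with the row as a block it was 0.60 (limma adjusted p = 0.351).

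Counting groups that do not overlap, 4 of the 7 genes (Mt1, Mt2, Slc30a1, Slc39a8) had all tail-suspended hearts above all sham hearts and 0 had them below, beside 22.0% and 24.3% of all tested genes.

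**Figure D2:**
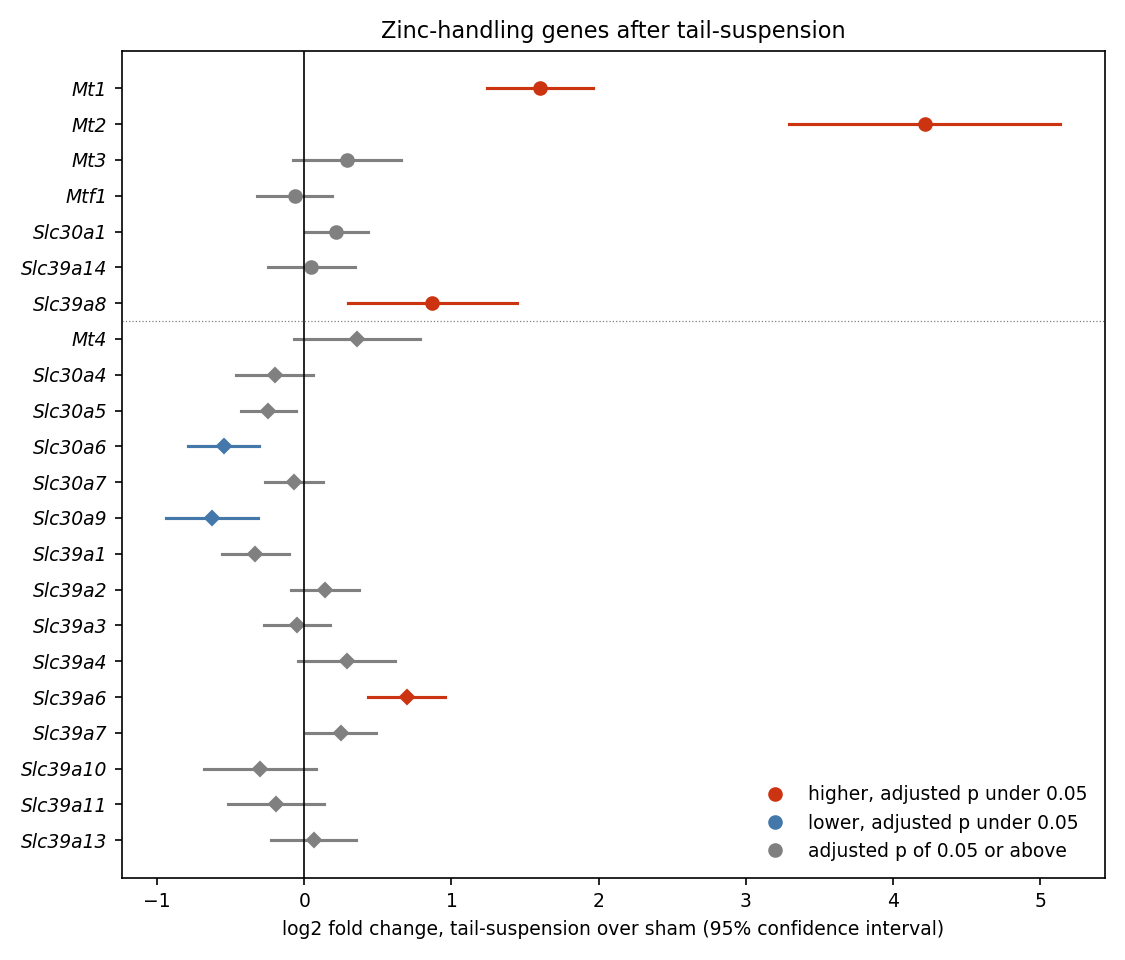
Log2 fold change, tail-suspension over sham (n = 3 each), with 95% confidence intervals, of the 7 genes (circles, above the dotted line) and of Mt4 and the other tested zinc transporters (diamonds); red and blue mark genes called higher and lower, and grey those not called. The point estimates of Mt2 (4.22) and Mt1 (1.60) lie above that of every transporter, whose values run from -0.63 to 0.87. The intervals of Mt1 and Slc39a8 overlap.

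Among the remaining zinc transporters, 3 of 14 tested passed the test, 1 higher and 2 lower. Over all tested genes 10.5% were called higher and 10.6% lower, or 18.7% and 20.6% at an unadjusted limma p under 0.05. Of 9 other ZnT genes, 4 were not well above background and 5 were tested, of which 2 were called lower and 0 higher. On the brightest probe all 5 had negative log2 fold changes, with a median of -0.24, though the other probes of Slc30a7 (-0.07) both gave 0.14, and at an unadjusted p under 0.05 limma gave 3 lower and 0 higher. Slc30a6, a transporter of the secretory pathway, fell by 0.55 on the log2 scale (limma adjusted p = 0.0162), from -0.42 ± 0.11 to -0.97 ± 0.11 (SD, n = 3 each). Slc30a9, a mitochondrial zinc exporter, fell by 0.63 (limma adjusted p = 0.0229), and its other tested probe fell by 0.65. The Slc30a6 call was lost without sham replicate 2 (-0.51, limma adjusted p = 0.0698). The Slc30a9 call was lost without sham replicate 1 or 2 or tail-suspension replicate 1 or 3, with log2 fold changes of -0.54, -0.58, -0.66 and -0.61. Of 12 other ZIP genes 9 were tested, and 1 was called higher and 0 lower (2 and 1 at an unadjusted limma p under 0.05), with a median of 0.06. The gene called was Slc39a6, a plasma membrane importer, with levels of -0.20 ± 0.07 and 0.49 ± 0.16 (SD, n = 3 each) and a log2 fold change of 0.70 (limma adjusted p = 0.0106). That call was lost with slide row as a block (0.66).

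Other genes that Mtf1 is known to act on were Gclc, Slc40a1, Csrp1 and Ndrg1. Ndrg1, a stress-responsive gene, rose by 0.66 on the log2 scale (limma adjusted p = 0.00616), from 3.20 ± 0.05 to 3.86 ± 0.07 (SD, n = 3 each). Its call was lost with slide row as a block (0.67). Gclc, which makes the rate-limiting subunit for glutathione synthesis, rose by 0.46 (limma adjusted p = 0.0189), a call lost without sham replicate 1 or 2 or tail-suspension replicate 3 (0.45, 0.42 and 0.43). The iron exporter Slc40a1 had 0.07 and Csrp1 0.12, neither called. So 2 of 4 were called higher and 0 lower by limma, adjusted or not, with a median of 0.29. Of all tested genes 10.5% were called higher and 10.6% lower, or 18.7% and 20.6% unadjusted.

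Among genes of iron and copper handling, 15 of 17 were tested, of which 2 were called higher and 1 lower, with a median of 0.08. The shares over all tested genes were 10.5% and 10.6%. At an unadjusted limma p under 0.05 the counts were 6 and 4, beside 18.7% and 20.6%. Cp, the copper ferroxidase ceruloplasmin, rose from 2.98 ± 0.24 to 4.15 ± 0.10 (SD, n = 3 each), a log2 fold change of 1.17 (limma adjusted p = 0.00464). The Cp call was lost with slide row as a block (1.11). Ftl1, the ferritin light chain, rose by 0.54 on the log2 scale (limma adjusted p = 0.0256), and without any 1 array other than tail-suspension replicate 1 the call was lost (0.48 to 0.57). Tfrc, the transferrin receptor, fell by 2.37 (limma adjusted p = 0.0241), with levels of 2.17, 2.36 and 2.17 in sham and 1.03, -1.19 and -0.23 in tail-suspended hearts. The Tfrc call was lost without any sham replicate (-2.40, -2.30 and -2.40) or without tail-suspension replicate 3 (-2.31). Erythroid markers also had lower mean levels. Their summed level was 430 to 696 in sham and at most 345 in tail-suspended hearts, 4 of 4 tested had negative log2 fold changes, and 1 (Hba-a1) was called lower. Among the tail-suspended hearts, each of these 4 tested markers was highest in replicate 2, where Tfrc was lowest. The part of erythroid RNA in the Tfrc value was not tested.

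Other signals known to raise metallothionein transcription, besides metals, were looked at through genes each is known to induce. These lists were chosen with earlier results of these data known, so their counts are a description and not a test of any signal. Of 12 glucocorticoid-induced genes 8 were called higher and 0 lower by limma, beside 10.5% and 10.6% of all tested genes. At an unadjusted limma p under 0.05 they were 10 and 0, beside 18.7% and 20.6%. The median log2 fold change was 0.76. Errfi1 was fitted without sham replicate 2, whose spot was an outlier, and was not called. Without sham replicate 1, sham replicate 2 or tail-suspension replicate 3 the count called higher was 3, and without tail-suspension replicate 1 it was 4. It was also 3 with no filter on dim probes and by the methods' t-test, and 2 with slide row as a block. Fkbp5, a co-chaperone of the glucocorticoid receptor, rose by 3.08 on the log2 scale (limma adjusted p = 0.00213), the cell cycle inhibitor Cdkn1a by 2.62 (limma adjusted p = 0.00369) and the transcription factor Zbtb16 by 2.47 (limma adjusted p = 0.00251). The Cdkn1a call was lost with slide row as a block or within the first row (2.50), and its other tested probe rose by 1.71. Per1 rose by 1.77 (limma adjusted p = 0.032). The Per1 call was lost in 9 of 20 alternatives, among them those without any 1 array other than sham replicate 3 (1.47 to 1.97).

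Of 12 genes induced by IL-6 and STAT3, 9 were tested, 6 were called higher and 0 lower by limma, adjusted or not, with a median of 1.30. Without tail-suspension replicate 3 that median was 0.76. The shares of all tested genes called higher and lower were 10.5% and 10.6%, or 18.7% and 20.6% unadjusted. The siderophore-binding protein Lcn2 rose by 4.05 on the log2 scale (limma adjusted p = 0.00915) and the protease inhibitor Serpina3n by 3.81 (limma adjusted p = 0.00325). Socs3, the feedback inhibitor of STAT3, rose by 1.49 (limma adjusted p = 0.0035) and the oncostatin M receptor Osmr by 1.35 (limma adjusted p = 0.00251). The Lcn2 call was lost by the methods' t-test and with slide row as a block (4.35). The count called higher was 3 by the methods' t-test and with slide row as a block.

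Of 8 genes induced by the oxidant-responsive factor NRF2, 7 were tested and 1, Hmox1 (haem oxygenase), was called higher, and 0 lower by limma, adjusted or not, with a median of 0.11. Beside this, 10.5% of all tested genes were called higher and 10.6% lower, or 18.7% and 20.6% unadjusted. Hmox1 rose by 0.90 on the log2 scale (limma adjusted p = 0.0219), while its other tested probe gave 0.22. That call was lost without sham replicate 1 or 2 (0.94 and 0.74) or tail-suspension replicate 3 (0.83), while without tail-suspension replicate 2 the list had 2 called higher. With 1 array left out the median was 0.056 to 0.21.

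**Figure D3:**
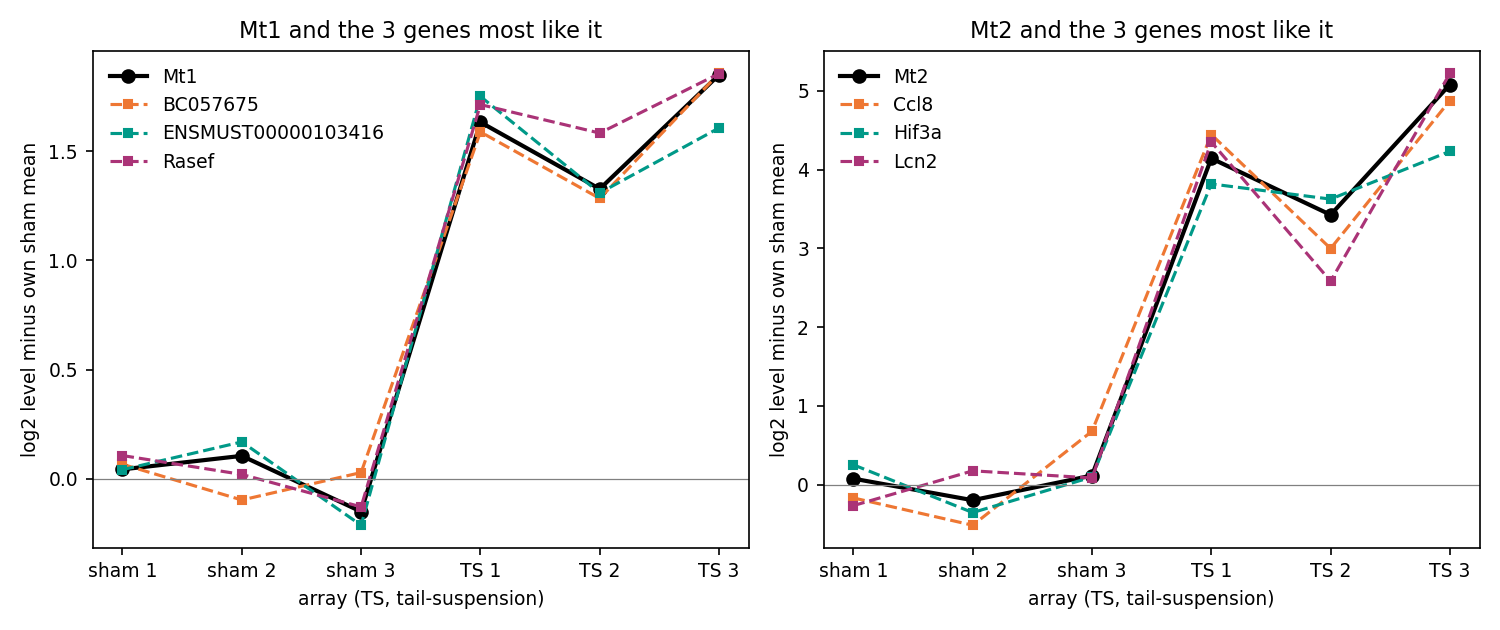
Log2 level minus the gene's own sham mean on each of the 6 arrays, for Mt1 (left) and Mt2 (right), each with the 3 genes whose profile was closest. In both panels tail-suspension replicate 2 is the lowest tail-suspended heart for Mt1 and Mt2, which then lie at 1.33 and 3.43.

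The profiles most like Mt1 and Mt2 were found by the root mean square difference over the 6 arrays between log2 levels centred on the gene's sham mean, among 16288 genes above background on all arrays, as a description with no test. Nearest to Mt1 were BC057675 (0.11), ENSMUST00000103416 (0.12) and Rasef (0.12), with log2 fold changes of 1.58, 1.56 and 1.72. With normexp background correction Rasef had 0.45, so its likeness to Mt1 depends on that choice. Nearest to Mt2 were the monocyte-attracting chemokine Ccl8 (0.36), the hypoxia-inducible factor subunit Hif3a (0.39) and Lcn2 (0.41), with 4.11, 3.89 and 4.05. Other Hif3a probes gave 2.67 and 1.20, so its likeness to Mt2 rests on 1 probe.

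Markers of other cell types also moved with tail-suspension. For neutrophils, whose granules hold Lcn2, S100a8 rose by 4.80 and S100a9 by 4.61 on the log2 scale. Retnlg was well above background on all 3 tail-suspension arrays and on no sham array, so it entered the test through the group where it is high, and its sham level is only a bound. Camp, Csf3r and Elane had 1.97, 0.29 and -0.30 and were not called, and Ngp was too dim to be tested. The summed level of the list was 146 to 173 in sham and 209 to 239 in tail-suspended hearts, and without Csf3r, which carries most of it, 1.73 to 2.16 and 8.98 to 51.8. The summed level was 22.1 to 28.9 and 23.0 to 34.6 for macrophage, 53.5 to 58.5 and 61.7 to 65.6 for endothelial and 279 to 296 and 276 to 349 for fibroblast markers, the last being 65.1 to 86.9 and 28.3 to 58.3 without Dcn. Cd163 (macrophage) was above background on the 3 tail-suspension arrays and on no sham array. Vwf (endothelial) was called higher, and called lower were Kdr and Tie1 (endothelial), Col3a1 (fibroblast) and Actc1 (cardiomyocyte). Of 6 adipocyte markers only Cfd was tested, and it was not called. Hepatocytes, a rich source of metallothionein, left little signal. Their 5 markers summed to 0.20 to 0.42 in sham and 0.34 to 0.93 in tail-suspended hearts. Alb, Apoa1 and Apob were above background on no array, whereas Serpina1a was above it on all 6 and was not called (0.11). Ttr, above background on 2 of 3 sham arrays, rose by 2.64 on the log2 scale (limma adjusted p = 0.00793). Of 6 neuronal markers, Syt1, Rbfox3 and Nefl were above background on no array, but the other 3 were above it on all 6. The summed level of the neuronal list was 25.3 to 33.1 in sham and 19.5 to 35.7 in tail-suspended hearts, and 0 were called. The part of other cell types in the rise of Mt1 and Mt2 was not tested.

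**Figure D4:**
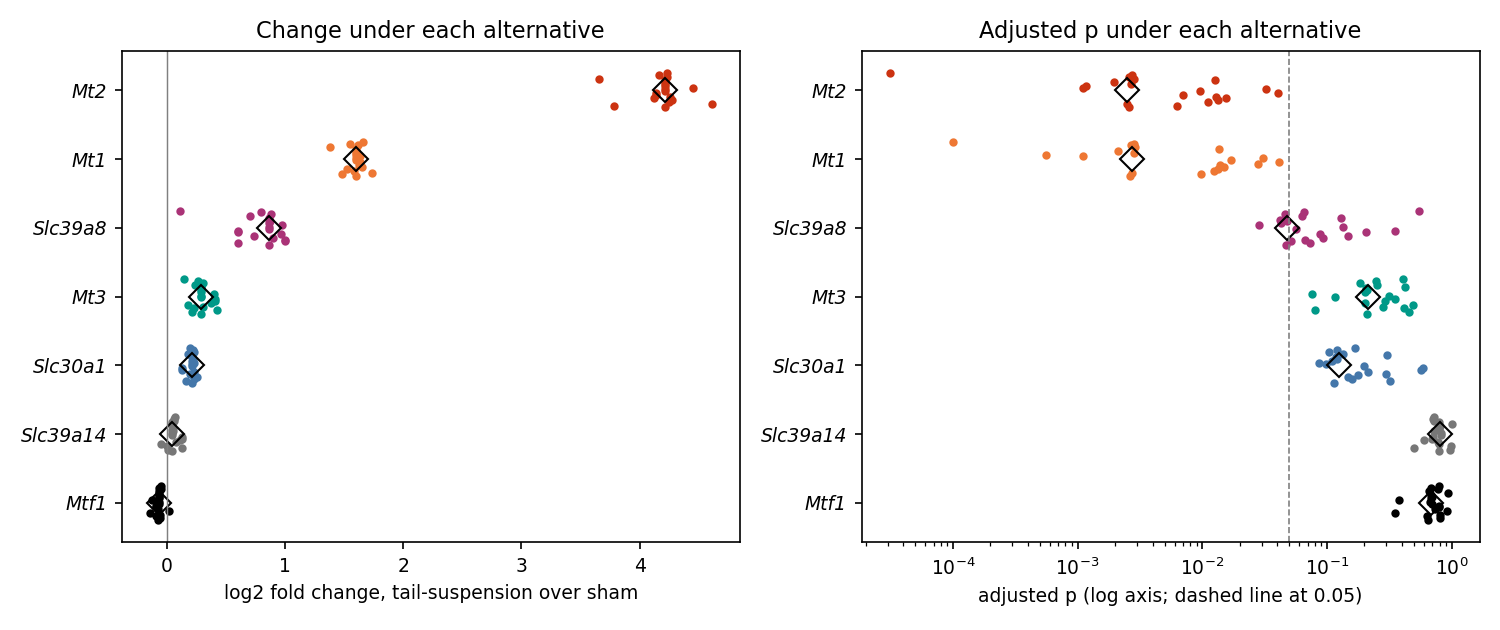
Left, log2 fold change of each of the 7 genes, tail-suspension over sham, under 20 alternative settings (dots) and as reported (open diamonds); right, the adjusted p of the same values on a log axis, with a dashed line at 0.05. Mt2 (3.65 to 4.61) and Mt1 (1.39 to 1.74) stay left of the line in all 20, and Slc39a8 lies right of it in 14.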

How the data were processed

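Total RNA of 3 sham and 3 tail-suspended mouse hearts was hybridised to 1-colour Agilent arrays. The authors deposited scanner output from Agilent Feature Extraction 10.7.1.1, per the labels, in which each spot has a mean, a background and a processed intensity. They also deposited a table of log2 values whose columns correlated above 0.999 with the log2 processed intensity; its normalization is not stated in the sources used here and it served as an alternative. In R 4.3.3 the log2 processed intensity was taken minus its 75th percentile on that array. Control and outlier spots were dropped and repeated spots averaged. Probes well above background (at least 50% of spots) on all arrays of a group entered 1 limma 3.58.1 model of all 6 arrays (lmFit, eBayes) without covariates, and p-values were adjusted by Benjamini-Hochberg (threshold 0.05). The fit was tested on simulated data. The brightest tested probe stood for a gene. Only 3 arrays per group limit the precision. Coordinates of probes are on mm9, and RefSeq windows (GRCm38.p6) were searched in Python without converting between builds. The members, lists and motifs were chosen with earlier results of these data known. Named are the 7 members, the 3 genes most like Mt1 and Mt2, at most 4 called genes of each list and at most 3 markers of each cell type, plus genes singled out as marked. Alternatives covered background correction, normalization, filters, outlier spots, the variance model, array weights, the methods' t-test, pairing, the row of the slide and each array left out.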

Additional observations from a re-analysis of the deposited data

How the results depend on the processing

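Under 20 alternatives the rises of Mt2 (3.65 to 4.61) and Mt1 (1.39 to 1.74) kept direction and call. With 1 array left out they were 3.78 to 4.61 and 1.48 to 1.74, and the Mt2 minus Mt1 shift was 2.30 to 2.87. Slc39a8 lost its call in 14 of 20. It was 0.11 with normexp, 0.80 with quantile normalization, 0.70 in the authors' log2 table, 0.87 with no filter on dim probes, under the methods' t-test and with the replicate block, and 0.60 with slide row as a block or within the first row. Leaving out 1 array gave 0.60 to 1.00. The cause was not tested. Mt3 (0.15 to 0.42) and Slc30a1 (0.13 to 0.26) were called in none. Mtf1 (-0.14 to 0.020 with 1 array left out) turned to 0.020 without sham replicate 2, its dimmer probe (-0.16 to 0.012) to 0.012 without tail-suspension replicate 1, and Slc39a14 (-0.050 to 0.13) to -0.050 without sham replicate 3, none of them called.

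Genes called higher and lower over the whole array, 1794 and 1814, came to 634 and 544 without the filter, 905 and 876 by the methods' t-test, 211 and 117 with slide row as a block and 305 and 149 within the first row. Array weights gave 2727 lower. With 1 array left out the counts were 595 to 1812 higher and 522 to 1655 lower. List medians moved with normexp, to -0.046 for Mt4, -0.18 for the other ZnT and -0.093 for the other ZIP genes. The ZnT median was -0.29 with the row as a block or within the first row, and -0.22 to -0.29 with 1 array left out. Over the alternatives the genes called higher numbered 2 to 10 of the glucocorticoid list, 3 to 8 of the IL-6 list, 0 to 2 of the NRF2 and Mtf1 target lists and 0 to 1 of the other ZIP genes. The other ZnT genes called lower numbered 0 to 3, and iron and copper genes 0 to 5 higher and 0 to 4 lower.

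Replicate numbers did not pair the samples, since same-numbered deviations correlated at -0.02, -0.02 and 0.05. With the replicate block 1038 genes were called higher and 947 lower, and Mt2 and Mt1 kept their calls (4.22 and 1.60, limma adjusted p = 0.00956 and 0.0169). Of the 22 other genes named by rule, 9 kept their call in every alternative, 13 lost it in at least 1 and 0 changed direction. Each of the 13 lost it with slide row as a block. Low signal limits Slc39a8 and the dimmer Mtf1 probes.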
